A study of Homo sapiens with 12 samples.

Results

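Peaks on mitochondrial DNA were described in ChIRP-seq of Jurkat cells, by probe set and by the genes beneath them. Members were all peaks on chrM in the 9 deposited peak lists, chosen by position and merged where they shared 1 base. The contrast of odd with even lists had already been seen when this set was picked, so presence by probe set is a description without a test. The lists held 32 mitochondrial peaks of 764268 in all. They formed 9 of 359143 merged regions. Positions here and below are on hg19, whose mitochondrial sequence is offset by a few bases from the current reference.

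Jurkat is an established human T-cell leukaemia line, and all cells here stably expressed the long non-coding RNA SLEAR. No group without SLEAR was among the samples, and the sources used here do not say whether the line was 1 clone. ChIRP-seq uses biotinylated oligonucleotides complementary to an RNA to pull down crosslinked chromatin, and the DNA retrieved is sequenced. The labels name 4 groups of 3 replicates: input, lacZ probes (against a bacterial RNA, as the control), odd probes and even probes. Peak lists of lacZ, odd and even samples were used, and the 3 input samples were not analysed here. Peak lists hold no RNA levels, so the cell type could not be checked against markers.

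Mitochondrial DNA is a small circle present in many copies per cell. It codes for a pair of ribosomal RNAs, a set of transfer RNAs (tRNAs) and subunits of the respiratory chain. Both strands are transcribed as long precursors from promoters in a non-coding control region, and the tRNAs between the other genes mark where the precursors are processed. Stretches of mitochondrial DNA have also been copied into the nuclear chromosomes, and a long, near-identical copy lies near one end of chromosome 1.

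Odd lists held the most mitochondrial peaks and even lists the fewest. There were 7, 6 and 6 peaks in odd replicates 1, 2 and 3, and 1, 1 and 2 in even replicates 1, 2 and 3. The lacZ lists varied, with 6, 2 and 1. Per 10000 peaks of the list, odd lists had between 0.511 and 1.05, even lists between 0.106 and 0.160, and lacZ lists between 0.220 and 1.28. The set was chosen for the contrast of odd with even lists, and the even values rest on 1, 1 and 2 peaks. The lacZ range overlapped the odd one because of lacZ replicate 1. Mitochondrial peaks covered 3537 to 5037 bases in an odd list, 271 to 693 in an even list and 640 to 4723 in a lacZ list. Whole lists held from 26540 peaks (lacZ replicate 3, with 1 mitochondrial peak) to 124668 (even replicate 3, with 2). The lists of lacZ replicate 1 and odd replicate 1, with 6 and 7 mitochondrial peaks, held 46693 and 66520. The part of list length and depth in these counts was not tested.

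Of the 9 regions, 5 had a peak in all 3 odd lists and in no even list, and over all sequences 15.1% of regions met that rule. With lacZ peaks barred as well, 2 of the 9 met it, where the share over all sequences was 14.5%. None of the 9 had a peak in all 3 even lists and in no odd list, against 18.0% over all sequences. One region, 1 of 9, had a peak in all 3 lacZ lists, against 6.70%, and the same region had a peak in every probe list, against 0.689%. These counts rest on the contrast that chose the set and are given as a description.

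Counted by summit, the base of highest coverage in a peak, the sets were more separate than the merged regions show. Summits within 100 bases of a neighbour were joined, which gave 13 places on mitochondrial DNA. In 6 of them summits came from every odd list and from no even list (14.6% of such places over all sequences). In 1 they came from every even list without an odd one (17.4%), and in 1 from all 3 lacZ lists (6.20%). No place on mitochondrial DNA held summits of odd and even lists together.

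**Figure D1:**
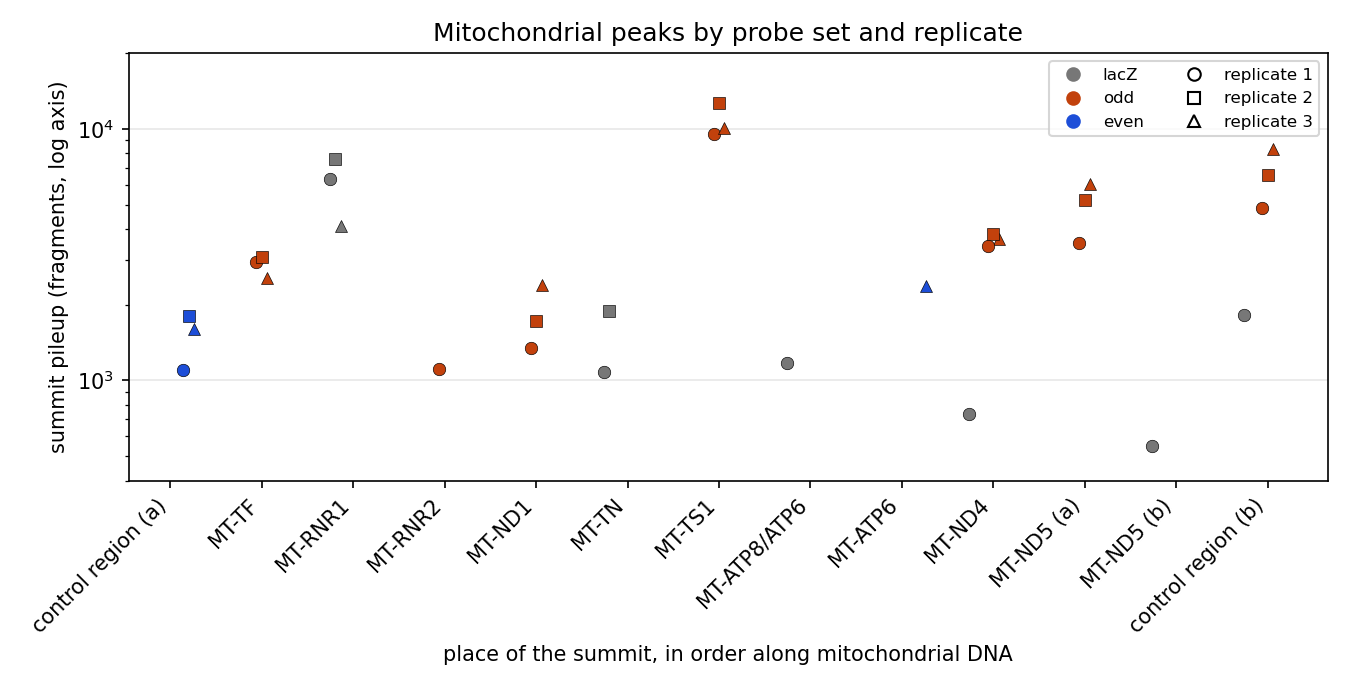
Summit pileup in fragments (log axis) of the 32 mitochondrial peaks, by the 13 places where their summits fell, named by the gene at the summit; colour is the probe set and marker shape the replicate. The 3 odd lists recur at 6 places and reach 12681 at MT-TS1, whereas the 3 lacZ lists recur at MT-RNR1 and the 3 even lists in the control region.

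Mitochondrial genes were assigned from the 37 mitochondrial genes of a RefSeq table on GRCh38 by overlap of more than 10 bases, a margin for the offset between references. No coordinate of that table is given. A peak lay over 27 of the 37 genes in at least 1 list. These were both ribosomal RNA genes, 12 of the 13 protein-coding genes (all but MT-ND3) and 13 of the 22 tRNA genes. Odd peaks lay over 17 genes, 11 of them in all 3 odd lists. Even peaks lay over 2 genes, both from 1 peak of even replicate 3, and lacZ peaks over 17 genes, of which 1 had a peak in all 3 lacZ lists.

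The strongest odd peak lay across the junction of MT-CO1 and MT-CO2, in chrM:6909-7817. MT-CO1 and MT-CO2 encode subunits of cytochrome c oxidase, and the genes between them, MT-TS1 and MT-TD, encode tRNAs for serine and aspartate. The summit was at base 7475 in each of the 3 odd lists, within MT-TS1. Its pileup, taken here as the number of fragments over the summit, was 9509, 12681 and 10041 in odd replicates 1, 2 and 3. It had the highest pileup of the whole list in odd replicates 1 and 3 and the second highest in replicate 2. No even or lacZ list had a peak there. The fold enrichment, which the authors' lists give per peak, was 14.1, 19.3 and 20.3, at the 67.0, 68.2 and 77.5 percentile of fold in its own list. The peak was thus among the first by pileup and not by fold.

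At 4 of the 6 places the odd summits spanned at most 11 bases. The spans were 0 bases at MT-TS1, 2 bases at MT-ND4, 7 bases in the control region, 11 bases at MT-ND1, 33 bases at MT-ND5 and 37 bases near MT-TF. In the 58103 regions on chromosomes 1 to 22 and X with 1 peak from each odd list, the median span was 43 bases (quartiles 26 and 62). The span was 0 bases in 0.0757% of those regions, at most 2 bases in 0.654% and at most 14 bases in 9.81%. No share was computed at 7 or 11 bases. Those regions were merged by shared bases, whereas the mitochondrial places were joined by summits within 100 bases. The spans at MT-ND5 and near MT-TF lay between the nuclear quartiles. Pileup was far higher at the mitochondrial summits, as given below, and its part in these spans was not tested.

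The second strongest place in the odd lists was the control region beyond MT-TP, in chrM:15358-16470, next to the tRNA genes MT-TT and MT-TP. Summits lay at 16211, 16210 and 16217 with a pileup of 4859, 6579 and 8313 in odd replicates 1, 2 and 3. That was 51.1%, 51.9% and 82.8% of the pileup at MT-TS1 in the same list. In odd replicates 2 and 3 the peak was 1073 and 1113 bases long and reached into MT-CYB, the gene of cytochrome b. In odd replicate 1 it was 553 bases long and did not. A lacZ peak was also present, in lacZ replicate 1 only, with its summit at 16209, 1 base from the nearest odd summit, and a pileup of 1822.

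MT-ND5, which encodes a subunit of respiratory complex I, held the next peak, in chrM:13439-14454. Its pileup was 3503, 5193 and 6022 in odd replicates 1, 2 and 3, with summits at 13764, 13775 and 13742. In odd replicates 1 and 3 the peak ran on into MT-ND6, a complex I gene on the opposite strand. The lacZ replicate 1 peak that joined this region had its summit at 14129, 354 bases from the nearest odd summit, and a fold of 1.18, the lowest of the 32.

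MT-ND4, another complex I gene, lay under chrM:10716-11214. Odd replicates 1, 2 and 3 had a pileup of 3432, 3822 and 3663 there, with summits at 10926, 10925 and 10924. A lacZ peak was again present only in lacZ replicate 1, with a pileup of 733, a fold of 1.30 and its summit 78 bases from the nearest odd one. The 3 odd values lay close together and all above the lacZ value.

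MT-ND1, also of complex I, held the weakest recurrent odd peak, in chrM:3892-4291. Its pileup was 1351, 1728 and 2395 in odd replicates 1, 2 and 3, with summits at 4089, 4100 and 4100. Its fold of 2.41, 3.31 and 5.60 put it at the 0.0331, 0.578 and 17.2 percentile of its list, so in odd replicates 1 and 2 nearly all peaks of the list had a higher fold. No even or lacZ list had a peak there. The order of pileup was the same in each odd list: MT-TS1, the control region beyond MT-TP, MT-ND5, MT-ND4, the peak near MT-TF and MT-ND1.

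All 9 lists met in 1 region, chrM:92-2779, over the control region, MT-TF, MT-RNR1, MT-TV and MT-RNR2, but their summits did not coincide. MT-RNR1 and MT-RNR2 encode the small and the large ribosomal RNA of the mitochondrion, and MT-TF and MT-TV tRNAs for phenylalanine and valine. The even summits lay in the control region at 330, 345 and 345 in replicates 1, 2 and 3. The odd summits lay at 652, 615 and 617, within or at the edge of MT-TF. The lacZ summits lay at 1242, 1245 and 1256, within MT-RNR1. The median summits of the sets were 272 bases apart from even to odd and 628 bases apart from odd to lacZ.

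**Figure D2:**
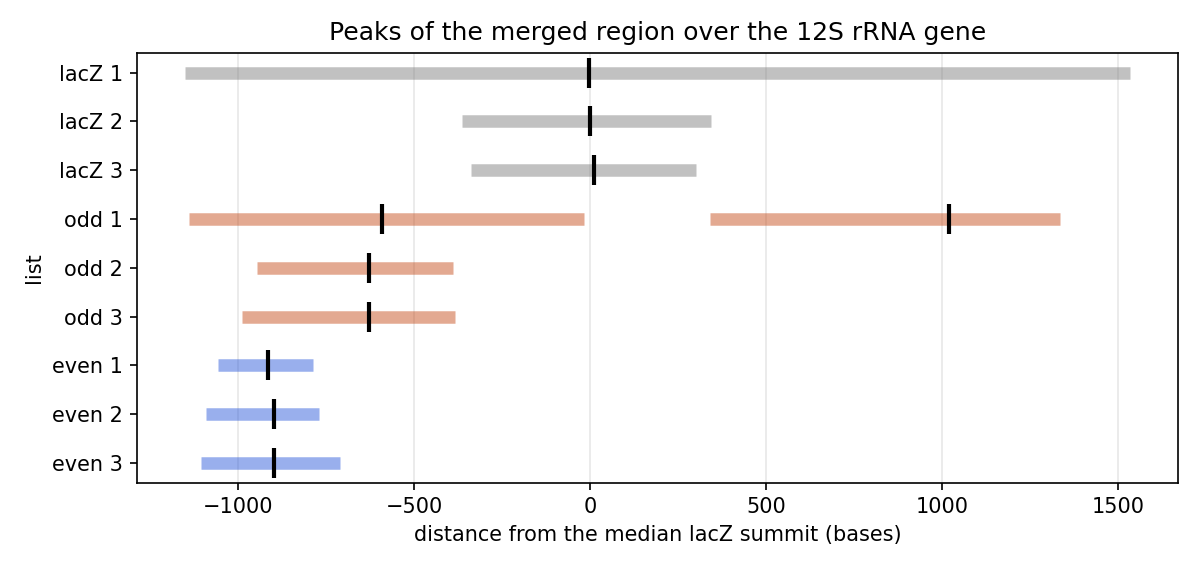
Extent (bars) and summit (black marks) of the 10 peaks of the region shared by all 9 lists, as distance in bases from the median lacZ summit. The 3 even, the 3 lacZ and the first odd summit of each odd list form separate groups, whose medians lie at least 272 bases apart; odd 1 has a further summit beyond the lacZ ones.

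At MT-RNR1 the pileup was 6301, 7551 and 4106 in lacZ replicates 1, 2 and 3. It was the second highest pileup of the whole list in each of the 3. The fold there was 10.7, 16.5 and 9.46, at the 51.5, 63.1 and 33.1 percentile of the list. The lacZ probes thus gave their strongest mitochondrial peak at a place where no probe list had its summit.

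Near MT-TF the odd pileup was 2944, 3094 and 2556 in replicates 1, 2 and 3. Odd replicate 1 alone had a further peak over the end of MT-RNR1, MT-TV and MT-RNR2, with its summit at 2263 within MT-RNR2 and a pileup of 1113. The even peaks in the control region had a pileup of 1100, 1800 and 1604, below every odd pileup near MT-TF and every lacZ pileup at MT-RNR1. Their fold was 2.63, 4.14 and 6.34. The even peaks overlapped the odd peaks near MT-TF in all 3 odd lists. The lacZ peaks were joined to them through the long peaks of lacZ replicate 1 (2688 bases) and odd replicate 1 (1122 and 995 bases). The 995-base peak of odd replicate 1 overlapped the lacZ replicate 2 peak only from 1585 to 1588.

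The remaining 3 regions came from 1 or 2 lists. In chrM:5255-5881, lacZ replicates 1 and 2 had a pileup of 1085 and 1883, with summits at 5664 and 5682 at or near MT-TN, in a cluster of tRNA genes between MT-ND2 and MT-CO1. In chrM:8347-8797, over MT-TK, MT-ATP8 and MT-ATP6, only lacZ replicate 1 had a peak, with a pileup of 1171. MT-ATP8 and MT-ATP6 encode subunits of ATP synthase. In chrM:8979-9274, over MT-ATP6 and MT-CO3, only even replicate 3 had a peak, with a pileup of 2382. It was the second highest pileup of that list, and the other 2 even lists had no peak there.

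The 7 genes singled out for this set can be read together. MT-ND1, MT-CO1, MT-ND4 and MT-ND5 lay under a peak in all 3 odd lists, and MT-RNR1 under a peak in all 3 odd and all 3 lacZ lists. MT-CYB lay under a peak in 2 odd lists and MT-RNR2 in 1 odd and 1 lacZ list. Over MT-ND4 and MT-ND5, 1 lacZ list had a peak as well. No even list had a peak over any of the 7. MT-CO1 and MT-CYB lay under peaks without holding a summit.

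Mitochondrial peaks were then set against the nuclear peaks of the same list, a comparison that does not use the contrast of probe sets. The background that pileup and fold imply was far higher on mitochondrial DNA in every list. Its median over the mitochondrial peaks lay between 417 and 583 fragments, against 0.645 to 1.66 at peaks on chromosomes 1 to 22 and X. The ratio was 251 to 672 in single lists, with a mean log2 ratio of 8.69 ± 0.46 (SD, n = 9 lists; exact sign-flip permutation test, two-sided, adjusted p = 0.00781). The log2 ratio was above 0 in 9 of 9 lists. The background was computed on the assumption that fold was made with 1 added to pileup and to background. Nuclear medians lay close to that 1, so the size of the ratio depends on it. How far it does was not tested. Only 1 to 7 nuclear peaks of a list had a background as high as the lowest at its own mitochondrial peaks. The range of this level overlapped between sets, with medians of 429 to 535 in lacZ, 439 to 583 in odd and 417 to 442 in even lists.

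**Figure D3:**
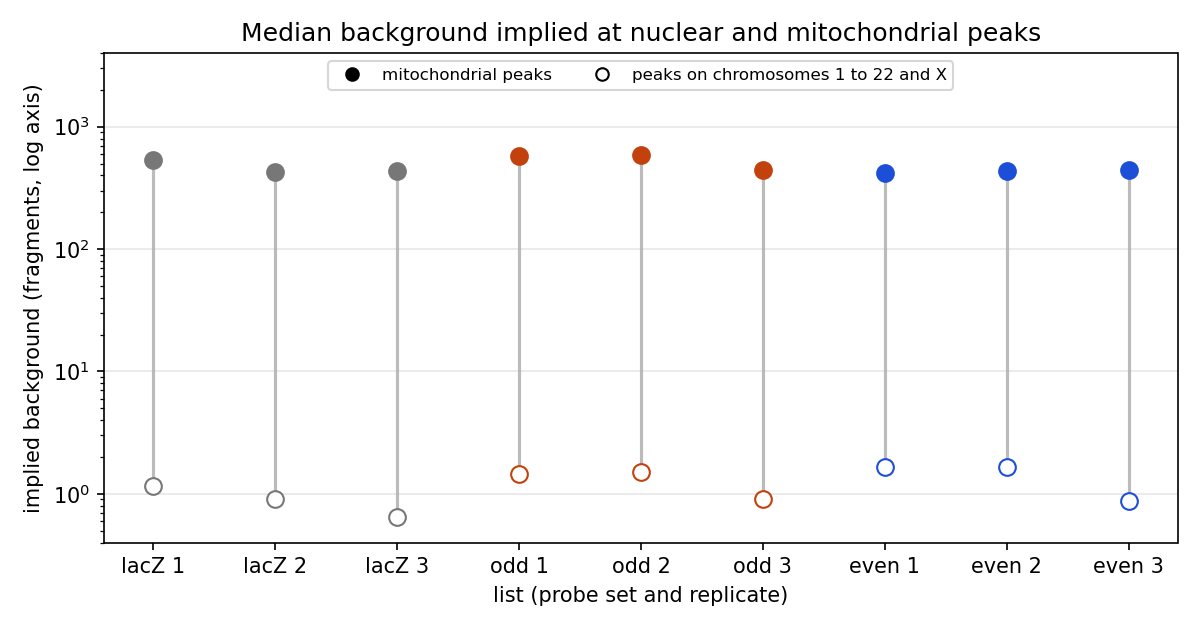
Median background in fragments (log axis) implied by pileup and fold at mitochondrial peaks (filled) and at peaks on chromosomes 1 to 22 and X (open), for each list. The filled points lie between 417 and 583 in all 9 lists and the open ones between 0.645 and 1.66.

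For every measure, the mitochondrial median rested on 1 peak in lacZ replicate 3 and even replicates 1 and 2. It rested on 2 peaks in lacZ replicate 2 and even replicate 3. Pileup was higher on mitochondrial DNA in 9 of 9 lists, with list medians of 1100 to 4842.5 fragments against 20 to 32. The mean log2 ratio was 6.71 ± 0.98 (SD, n = 9; same exact permutation test, adjusted p = 0.00781). Fold enrichment was lower in 8 of 9 lists, with a mean log2 ratio of -0.997 ± 0.81 (SD, n = 9; exact permutation test, adjusted p = 0.0104). The exception was odd replicate 3, where the median fold was 10.5 on mitochondrial DNA and 9.96 on the chromosomes. With the mitochondrial peak of highest pileup in place of the median, the log2 ratio of fold was -0.30 (exact permutation test, adjusted p = 0.457) and the call was lost. Peak length was higher in 6 of 9 lists and did not pass the test, at 0.25 ± 0.52 (SD, n = 9; exact permutation test, adjusted p = 0.199). The 3 lists with shorter mitochondrial peaks were the 3 even lists, with medians of 271, 320 and 346.5 bases against 409, 400 and 366. A background is known only where a peak was called, and a peak must exceed it, so pileup and background are not independent measures. The lowest background at a mitochondrial peak was 252 fragments, already above the nuclear median pileup of 20 to 32. The direction of the pileup ratio was thus fixed by the background, and its test adds no separate support. The call also bears on the fold: the lowest fold among peaks at the lowest background was 2.92 to 3.76 by list, whereas mitochondrial peaks were called down to 1.18. Its part in the lower mitochondrial fold was not tested.

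In all 32 mitochondrial peaks the pileup was larger than the length of the peak in bases. On chromosomes 1 to 22 and X this held for 0.00564% to 0.05002% of the peaks of a list. The geometric mean ratio of mitochondrial to nuclear medians was 105 for pileup and 1.19 for length, so this largely restates the pileup difference. The sources used here do not say whether reads with the same ends had been removed, and their part was not tested.

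Some mitochondrial peaks had a partner on chromosome 1, where reads from the nuclear copy and from mitochondrial DNA could be placed at either. Between 560000 and 580000 on chromosome 1, 5 lists had a peak whose summit lay at about the same distance from a mitochondrial summit of the list. Distances within 100 bases of the best-shared value were counted as the same. The odd distances lay close together, and the lacZ ones lay further off. That of lacZ replicate 1 was near the 100-base limit. That distance was picked as the one shared by the most lists among 33 pairs of summits, and the next was shared by 3. The 3 odd lists had it at 567972, 567974 and 567977, which is 560497, 560499 and 560502 bases from the MT-TS1 summit at 7475. Its pileup was 1256, 2297 and 1548, or 13.2%, 18.1% and 15.4% of that at MT-TS1. In lacZ replicates 1 and 2 the chromosome 1 summits were at 566262 and 566215, with distances of 560598 and 560533 from the MT-TN summits, and a pileup of 430 and 1046. That was 39.6% and 55.5% of the mitochondrial value.

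**Figure D4:**
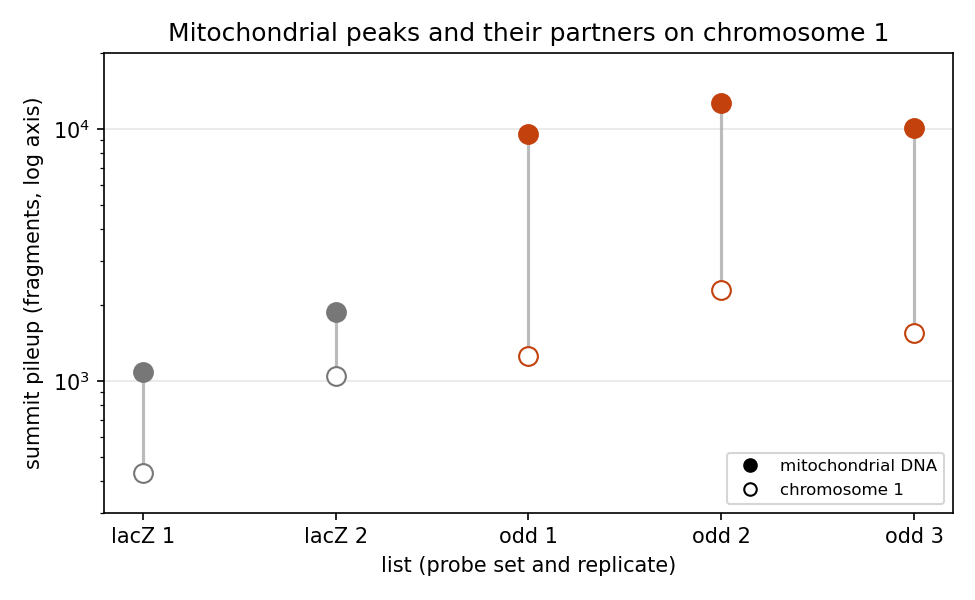
Summit pileup in fragments (log axis) of mitochondrial peaks (filled) and of their partners on chromosome 1 (open) in the 5 lists that had both. Partners reach 13.2% to 18.1% of the mitochondrial pileup in the odd lists and 39.6% and 55.5% in the lacZ lists.

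The fold order was the other way round in all 5 lists. The chromosome 1 partner had a fold of 19.9, 47.2 and 46.0 in odd replicates 1, 2 and 3, above the 14.1, 19.3 and 20.3 of the mitochondrial peak. In lacZ replicates 1 and 2 it had 4.07 and 12.9, above 2.06 and 4.70. In the odd lists its implied background was 62.1, 47.7 and 32.7 fragments, lower than at any mitochondrial peak of those lists. The odd summits at MT-ND1, the lacZ replicate 1 summit at MT-ATP8 and the even replicate 3 summit at MT-ATP6 had no such partner. The even lists had peaks with summits between 577413 and 577443, without a mitochondrial partner. Even replicate 3 had a further peak at 560524, with a pileup of 18 and a fold of 3.82, also without a partner.

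The sequence of a gene listed between the nuclear copies of MT-CO1 and MT-CO2 is shown because the strongest odd summit lay in MT-TS1. Its place was read from the order of genes alone, and no alignment was made. In the RefSeq order of genes on chromosome 1 (GRCh38.p14), the microRNA gene MIR12136 lies between MTCO1P12 and MTCO2P12, the pseudogene copies of MT-CO1 and MT-CO2, where MT-TS1 and MT-TD lie in mitochondrial DNA. Its hairpin has 71 bases and MT-TS1 has 69. The mature microRNA of 18 bases is in capitals.
MIR12136 hairpin: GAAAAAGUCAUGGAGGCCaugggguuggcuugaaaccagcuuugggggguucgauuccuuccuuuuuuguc
Whether this sequence lies under the chromosome 1 peaks was not tested, since the table follows another build than the lists.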

How the data were processed

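Per the submitters' processing notes, FastQC and Bowtie2 were the tools and hg19 the genome build. The sources used here do not name the peak caller, its control, any removal of duplicate reads or the treatment of reads with several placements. Each lacZ, odd and even sample had its own peak list, and the input samples had none. The deposited lists give positions in bases, the pileup as a signal, the fold enrichment as a ratio, and −log10 of p and q. Pileup was taken here as fragment coverage at the summit, not scaled to depth. Total reads are unknown, so no counting interval was computed.

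The background was computed as (pileup + 1) / fold − 1. It was at or just above the lowest value of the list at 30.2% to 39.8% of the peaks of a list. The formula assumes that fold was made with 1 added to pileup and to background, which the sources used here do not state. Log2 ratios of mitochondrial to nuclear medians within a list were tested by sign flips over all 9 lists (exact, two-sided, smallest p 0.00391), with Benjamini-Hochberg adjustment over the 4 measures. The lists were treated as independent, which the labels do not establish. Averaged by replicate number they leave 3 values, with which the sign-flip test cannot give p below 0.25. Nothing in the labels says that replicates came from separate cultures, so p-values measure the spread between these samples only. All mitochondrial regions were named. Members, lists and tests were chosen with earlier results of these data known. Merging and tests were tested on simulated data. Python 3.11.15 with pandas 2.3.3 and numpy 2.4.6 was used.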

Additional observations from a re-analysis of the deposited data

How the results depend on the processing

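The number of merged mitochondrial regions stayed between 6 and 13 under its 10 alternatives, all within 1.5 times of 9. The 5 regions of all odd and no even lists became 3 if presence required 50% of the region to be covered, and 2 with lacZ lists barred too; leaving out replicates gave 5 each time. The even count of 0 became 1 with summits joined within 100 bases. The lacZ count of 1 became 0 with 50% covered and ran from 1 to 2 without single replicates, with 2 without replicate 3. The region in every probe list was lost (0) with fold of at least 5, with 50% covered and with joined summits. The summit rule and the omission of lacZ replicate 1 with odd replicate 1 were chosen after seeing the data.

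With a replicate block the log2 ratios were unchanged in size, at 8.69 for background, 6.71 for pileup and -0.997 for fold, but 3 numbers cannot give an exact p below 0.25. Odd lists alone gave 8.71, 7.37 and -0.52, under the same limit. Without single replicates they were 8.49 to 8.80, 6.38 to 7.10 and -1.26 to -0.62. The exact adjusted p was then 0.0417 without replicate 3, and without replicate 1 or 2 it was 0.0625 for background and pileup and 0.0833 for fold, where 6 lists cannot give an unadjusted p below 0.0312. The mitochondrial peak of highest pileup gave -0.30 for fold, which lost its call. Over 49 nuclear regions present in all lists, libraries with the same number correlated at -0.082 to 0.27 (median 0.12) and those with different numbers at -0.29 to 0.201 (median -0.069). The numbers were not taken as pairs in the main test, because not every pair with the same number was above 0.1. That cut does not show that lists of the same number are independent, and their median correlation was the higher one. The lists of replicate 3 also shared a trait. Their lowest background was 0.596, 0.706 and 0.692 in lacZ, odd and even, against 0.798 to 1.34 in the other lists. Whether libraries of the same number share a batch was not tested. Depth is unknown and limits every comparison of pileup between lists.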
